A study of Homo sapiens with 6 samples.

Results

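The genes described here carry the heat shock response and the unfolded protein response, the programs with which a cell keeps its proteins folded. They were taken as a list of 43 genes with known roles in these programs, and each was followed through the probes annotated to its symbol. Of the 43 genes, 40 were measured by 52 probes that were detected on at least 3 of the 6 arrays, out of 11264 genes and 18156 probes measured in this way. The cells were WM-266-4, a human melanoma line. In the CT16 group they had been stably transfected with the plasmid pEXPR-IBA103 into which the cDNA of CT16 (gene symbol PAGE5), a cancer-testis antigen, had been cloned. Such antigens are found mainly in testis and tumors. In the control group they carried the same vector without insert. Both groups had gone through selection with the drug G418 and were grown with it in serum-containing medium, with no heat, further drug or other stress treatment named. Each group had 3 arrays, each of RNA from its own culture. Whether each stable line was a clone or a pool is not stated in the sources used here, and with 1 line per plasmid the plasmid and the line that received it cannot be told apart.

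Unfolded proteins in the cytosol release the transcription factor HSF1, which switches on chaperones of the HSP70, HSP90, HSP40 and small heat shock protein families. In the endoplasmic reticulum the sensors ATF6, IRE1 (gene ERN1) and PERK (gene EIF2AK3) respond to unfolded secretory proteins: ATF6 and the spliced form of XBP1 switch on chaperones of this compartment and the machinery that sends misfolded proteins to degradation, while PERK slows translation and lets the factor ATF4 be made, which acts on DDIT3 (CHOP), ATF3, TRIB3 and amino acid synthesis genes. Cells of the melanocyte lineage use calnexin, calreticulin and other chaperones of this compartment without added stress, to fold glycoproteins such as tyrosinase.

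Before the results, the arrays themselves were compared. At a detection p under 0.01 the number of detected probes was lowest on CT16 replicate 3 (16200, 33.2%), next lowest on control replicate 1 (17151) and highest on CT16 replicate 1 (18789, 38.5%). CT16 replicate 3 stood apart, with a Pearson correlation of log2 signals across probes of 0.884 to 0.936 with the other arrays, against 0.955 to 0.994 among the others. For the transfected gene, PAGE5, 3 probes were present. The brightest of them, ILMN_2363141, had log2 signals of 6.24, 6.14 and 7.47 on the CT16 arrays and 5.40, 5.44 and 5.70 on the control arrays, a log2 difference of 1.11 ± 0.37 (SE, limma adjusted p = 0.582). Its control signals lay close to the lowest log2 value of any detected probe, 5.14 to 5.25 on the control arrays. A second probe differed by 0.02 and the other was not detected on any array. The study reports that expression of the transfected gene in these cells was verified separately, in mRNA and in protein. Of 10 melanocytic marker genes 9 were measured, 8 of them on all 6 arrays. Of the markers of other cell types, 2 of 6 for fibroblasts, 5 of 9 for epithelial and endothelial cells and 2 of 6 for immune cells were measured. FAP, KRT18, PECAM1, VWF and CD14 were detected on all 6 arrays, LUM on 5, EPCAM on 4 and CDH1 and LYZ on 3, while COL3A1, KRT5, KRT14, KRT8, CDH5, PTPRC, CD3E and CSF1R were not detected on any.

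None of the 40 stress genes differed between CT16 and control cells past the threshold, an adjusted p under 0.05 over all probes (limma, 3 arrays against 3). Of all 11264 genes, 0.240% passed it (0.160% higher and 0.0799% lower in CT16 cells). The adjusted p-values of the 40 genes lay between 0.872 and 0.992. At an unadjusted p under 0.05, 0 of 40 genes passed, beside 6.41% of all genes (3.31% higher, 3.10% lower), and 0 of 40 differed by 1.5-fold or more, beside 12.1% of all genes (4.74% higher, 7.38% lower). In bulk RNA such values cannot tell a change in every cell from a change in the share of cells.

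The differences, always CT16 minus control on the log2 scale, ran from -0.56 for HSPH1 to 0.45 for SDF2L1. Of the 40, 17 were positive and 23 negative (57.5% negative, 52.8% for all genes). Their median was -0.06, against -0.03 over all genes, and the median of their absolute sizes was 0.18, against 0.23. The 95% interval of the difference lay inside 2-fold in either direction for 30 of the 40 genes and inside 1.5-fold for 3. For most of these genes the arrays therefore leave room for a difference of 1.5-fold but not of 2-fold. The standard errors were between 0.19 and 0.53.

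**Figure D1:**
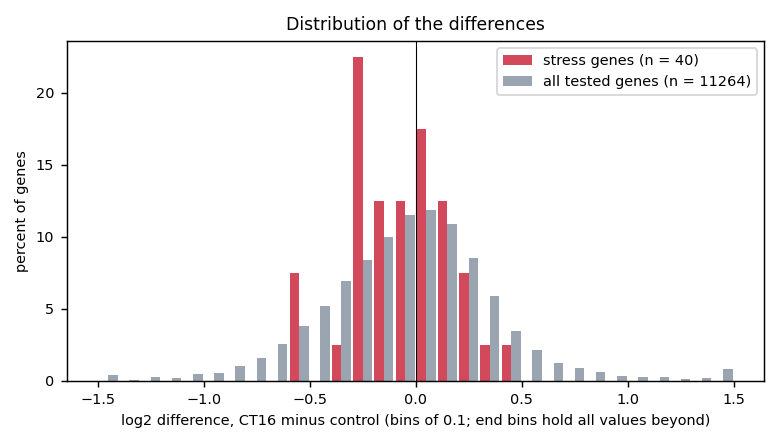
Share of genes (percent, vertical axis) in bins of 0.1 of the log2 difference, CT16 minus control (horizontal axis), for the 40 stress genes (red) and all 11264 measured genes (grey); the end bins hold all values beyond. The stress genes lie between -0.56 and 0.45, within the bulk of all genes.

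**Figure D2:**
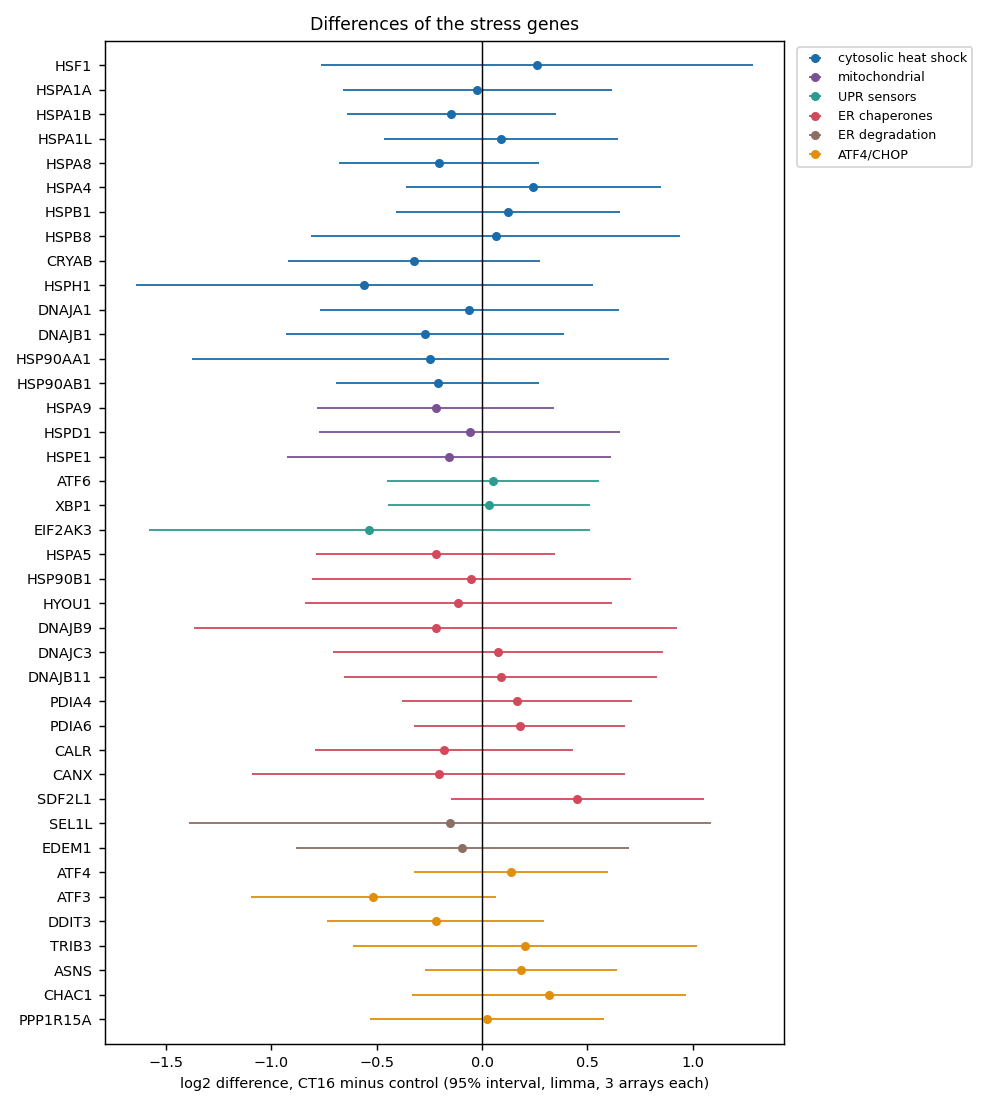
Log2 difference, CT16 minus control (points), with its 95% interval from limma (lines; 3 arrays per group), for each of the 40 stress genes from top to bottom by role (colors). Every interval holds 0, and those of HSPH1, HSP90AA1, EIF2AK3, DNAJB9 and SEL1L are among the widest.

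On 3 of the 40 genes the arrays of the 2 groups did not overlap (7.5%, beside 14.2% of all genes). ASNS had every CT16 array above every control array (6.79% of all genes did), and HSPA8 and ATF3 had every CT16 array below every control array (7.40% of all genes did). ASNS and HSPA8 are named for this count, after their values were seen.

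The cytosolic heat shock genes numbered 14, all measured, and their differences had a median of -0.10, with 5 positive and 9 negative. HSF1, the factor that drives the heat shock genes, was close to the detection limit. Its brighter probe, ILMN_1667060, had log2 signals of 5.17, 5.19 and 6.34 on the CT16 arrays, each detected, and of 5.25, 4.69 and 5.98 on the control arrays, of which 1 was detected. The lowest value of any detected probe was 5.07 to 5.39 on CT16 arrays and 5.14 to 5.25 on control arrays. The groups overlapped, and the difference of 0.26 ± 0.44 (SE, limma adjusted p = 0.965) turned with single arrays: it was -0.13 without CT16 replicate 3, -0.05 without control replicate 2 and 0.60 without control replicate 3.

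The largest difference of the cytosolic genes was that of HSPH1, a nucleotide exchange factor of the HSP70 machine. Its log2 signals were 10.27, 10.42 and 8.78 on CT16 arrays and 9.93, 10.48 and 10.73 on control arrays. CT16 replicate 3 alone lay far below the rest. The difference was -0.56 ± 0.46 (SE, limma adjusted p = 0.959), with a 95% interval of -1.64 to 0.52, and without CT16 replicate 3 it was -0.04.

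HSPA8, the constitutive HSP70 of the cytosol, gave log2 signals of 13.42, 13.37 and 13.12 on the CT16 arrays and 13.45, 13.58 and 13.50 on the control arrays. All CT16 values were the lower ones, by a narrow margin. The difference was -0.20 ± 0.20 (SE, limma adjusted p = 0.959), and a second HSPA8 probe differed by -0.20 ± 0.19, also without overlap. DNAJB1, an inducible HSP40 partner of HSP70, had 9.73, 9.63 and 10.40 on the CT16 arrays and 10.46, 10.17 and 9.94 on the control arrays. CT16 replicates 1 and 2 lay below every control array and CT16 replicate 3 did not. The difference was -0.27 ± 0.28 (SE, limma adjusted p = 0.959).

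The stress-inducible HSP70 genes HSPA1A and HSPA1B are the classical readout of heat shock. HSPA1A had 8.79, 8.88 and 9.47 on CT16 arrays and 9.38, 8.84 and 8.98 on control arrays, a difference of -0.02 ± 0.27. HSPA1B had 10.39, 10.32 and 10.66 on CT16 arrays and 10.76, 10.53 and 10.52 on control arrays, a difference of -0.15 ± 0.21. The groups overlapped for both genes. Their transcripts are nearly identical, so their probes may read both, and the third gene of this cluster, HSPA1L, differed by 0.09.

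Among the other cytosolic genes, the HSP90 genes HSP90AA1 (inducible) and HSP90AB1 (constitutive) differed by -0.25 and -0.21, and DNAJA1, another HSP40, by -0.06. HSP90AA1 had 2 further probes, at -0.48 with overlapping arrays and at -0.40 with every CT16 array below every control array (limma unadjusted p = 0.0897), and its brightest probe stood at 0.31 without CT16 replicate 3. HSPA4, a relative of HSPH1, differed by 0.24, of which the most came from CT16 replicate 2 at 7.51 while the other 5 arrays lay between 6.75 and 6.85. The small heat shock proteins HSPB1, HSPB8 and CRYAB, which hold unfolded proteins until they can be refolded, differed by 0.12, 0.06 and -0.32. On their brightest probes all 7 had overlapping arrays.

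The promoters of these genes were searched for 1 form of the letters that HSF1 recognizes. The motif GAANNTTCNNGAA, searched on both strands of RefSeq promoter windows (build GRCh38.p14, 250 bases before to 50 after each start), was present in 5 of the 40 listed genes with a window (12.5%), HSPA8, DNAJA1, HSP90AA1, HSP90AB1 and HSPD1, and in 0.608% of 27305 genes. HSF1, CRYAB and PDIA3 had no window. HSPA1A, HSPA1B, HSPH1 and DNAJB1 had no match to this form, and a match of letters is not a measured binding site. The sites of the 3 genes below stand before the start; the capitals mark the fixed letters of the motif.
HSPA8, chr11:123062349-123062371, minus strand: agcttGAAagTTCcaGAAcgctg
HSP90AA1, chr14:102087115-102087137, plus strand: ctcccGAAccTTCcgGAAgaacc
HSP90AB1, chr6:44247826-44247848, minus strand: atccaGAAgcTTCcaGAAcaatc
The differences of these 3 carriers were -0.20, -0.25 and -0.21, and those of the other 2, DNAJA1 and HSPD1, -0.06 and -0.06. HSP90AA1, DNAJA1 and HSPD1 were also among the genes that lay low on CT16 replicate 3, which stood at -1.68, -0.83 and -0.91 relative to the mean of the other CT16 arrays. Without that array the differences of these 3 were positive, at 0.31, 0.22 and 0.25.

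The mitochondrial chaperones HSPA9 (mortalin), HSPD1 (HSP60) and HSPE1 (HSP10), which fold imported proteins, were all measured, and their differences on the brightest probes were -0.22, -0.06 and -0.16. HSPA9 had log2 signals of 11.28, 11.32 and 10.70 on CT16 arrays and 11.33, 11.28 and 11.36 on control arrays. CT16 replicate 3 lay below the other 5 values, which were close together. The difference was -0.22 ± 0.24 (SE, limma adjusted p = 0.959), and -0.02 without this array.

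HSPD1 was read by 3 measured probes, which did not give the same picture. The brightest, ILMN_2381397, had 12.74, 12.79 and 11.85 on CT16 arrays and 12.30, 12.64 and 12.63 on control arrays, with a difference of -0.06 ± 0.31, and a second differed by 0.04 ± 0.33. The third, ILMN_1784367, had 6.60, 6.63 and 6.29 on CT16 arrays and 5.29, 5.88 and 6.08 on control arrays. Here every CT16 array lay above every control array, by 0.76 ± 0.27 (SE, limma unadjusted p = 0.0249, adjusted p = 0.642). This dim probe was detected on every array, but on control replicate 1 it lay close to the lowest value of any detected probe, 5.25. Without CT16 replicate 3 all 3 probes had the CT16 arrays above the control arrays, with differences of 0.25, 0.37 and 0.87. None passed the adjusted threshold there either.

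Of the sensors of the unfolded protein response and the factor XBP1 grouped with them, ATF6, XBP1 and EIF2AK3 were measured, and ERN1 had no probe annotated to it here. ATF6, a membrane-bound factor that is cut free on stress, had log2 signals of 10.67, 10.61 and 10.23 on CT16 arrays and 10.46, 10.42 and 10.47 on control arrays. The difference was 0.05 ± 0.22 (SE, limma adjusted p = 0.981) and the groups overlapped. XBP1, whose mRNA is spliced by IRE1, had 11.82, 11.89 and 11.75 on CT16 arrays and 11.99, 11.67 and 11.72 on control arrays. Its difference was 0.03 ± 0.20 (SE, limma adjusted p = 0.987), and 0.06 on a second probe. Which form of XBP1 the probes read was not examined, so these values are of XBP1 mRNA and not of its splicing.

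EIF2AK3, the gene of the kinase PERK, had 6.46, 6.55 and 4.91 on CT16 arrays and 6.30, 6.77 and 6.46 on control arrays. It was not detected on CT16 replicate 3 and lay in 1 narrow range on the other 5 arrays. The difference was -0.53 ± 0.45 (SE, limma adjusted p = 0.959), and -0.002 without that array. Neither ATF6 nor EIF2AK3 had a motif hit, and XBP1 held the endoplasmic reticulum stress element described with the chaperones below.

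The chaperones and folding enzymes of the endoplasmic reticulum numbered 12, of which 11 were measured, and PDIA3 was read by 1 probe that was not detected on any array. Their differences had a median of -0.05, with 5 positive and 6 negative. HSPA5 (BiP), the HSP70 of this compartment and the standard mark of its stress, had log2 signals of 11.20, 11.26 and 10.64 on CT16 arrays and 11.36, 11.14 and 11.27 on control arrays. The groups overlapped and CT16 replicate 3 was again the low one. The difference was -0.22 ± 0.24 (SE, limma adjusted p = 0.959). Its HSP90 partner HSP90B1 (GRP94) differed by -0.05, and the exchange factor HYOU1 by -0.11.

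SDF2L1, a partner of the HSP40 proteins of this compartment, had the highest difference of all 40 genes. Its log2 signals were 12.63, 12.33 and 13.10 on CT16 arrays and 12.38, 12.16 and 12.17 on control arrays. CT16 replicate 3 was the highest, and CT16 replicate 2 lay below control replicate 1, so the groups overlapped. The difference was 0.45 ± 0.26 (SE, limma adjusted p = 0.959), with a 95% interval of -0.15 to 1.05, and 0.25 without CT16 replicate 3.

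The HSP40 proteins DNAJB9, DNAJC3 and DNAJB11, which hand substrates to BiP, differed by -0.22, 0.08 and 0.09. The disulfide isomerases PDIA4 and PDIA6, which form and shuffle disulfide bonds, differed by 0.16 and 0.18. The lectin chaperones CALR (calreticulin) and CANX (calnexin), which fold glycoproteins, differed by -0.18 and -0.21. These 7 genes, HSP90B1 and HYOU1 had overlapping arrays and limma adjusted p-values of 0.959 or higher.

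Some of these chaperones carry the response element through which ATF6 and XBP1 act. Its sites are shown beside the values of CT16 replicate 3, on which the carriers lay on both sides. The endoplasmic reticulum stress element, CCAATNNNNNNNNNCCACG, was present on either strand in 6 of the 40 listed genes with a window (15.0%), XBP1, HSPA5, HSP90B1, PDIA6, CALR and CANX, and in 0.0916% of all 27305 genes. Its second form, ATTGGNCCACG, whose first letters are the reverse complement of CCAAT, was present in 3 (7.5%), HYOU1, SDF2L1 and HERPUD1, and in 0.0696% of all genes. No site of either form was found for DNAJB9, DNAJC3, DNAJB11 or PDIA4. The sites below stand before the start, with the fixed letters in capitals.
HSPA5, chr9:125241386-125241414, minus strand: cttcaCCAATcggcggcctCCACGacggg
HSP90B1, chr12:103930211-103930239, plus strand: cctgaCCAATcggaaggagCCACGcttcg
CANX, chr5:179698773-179698801, plus strand: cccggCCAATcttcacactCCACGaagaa
CALR, chr19:12938379-12938407, minus strand: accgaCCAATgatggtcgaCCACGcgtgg
HYOU1, chr11:119057269-119057289, plus strand: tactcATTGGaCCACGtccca
SDF2L1, chr22:21642109-21642129, minus strand: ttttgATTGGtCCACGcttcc
Relative to the mean of the other CT16 arrays, CT16 replicate 3 stood at -0.59 for HSPA5, -0.996 for HSP90B1 and -1.30 for CANX. PDIA6 and XBP1, which carry the same first form, stood at -0.36 and -0.10, and CALR at 0.47. The measured carriers of the second form, HYOU1 and SDF2L1, stood at 0.69 and 0.62. Of the first form, CALR alone thus stood on the other side on this array. DNAJB9, DNAJC3 and DNAJB11, without a site of either form, stood at -1.65, -1.01 and -0.96, and PDIA4 at 0.19. The median absolute size of this value over all genes was 0.80. Any part of the element in these values was not tested. A match of letters is a description of the promoter, not a measured binding site.

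For degradation from the endoplasmic reticulum, SEL1L, the scaffold of the ubiquitin ligase that takes misfolded proteins out, and EDEM1, which selects misfolded glycoproteins, were measured, and HERPUD1 had no probe annotated to it here. SEL1L had log2 signals of 6.995, 7.444 and 5.411 on CT16 arrays and 6.231, 7.010 and 7.066 on control arrays. The lowest values of each group were those of CT16 replicate 3 and control replicate 1. The difference was -0.15 ± 0.53 (SE, limma adjusted p = 0.979), and 0.45 without CT16 replicate 3. EDEM1 differed by -0.09 ± 0.34.

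The ATF4 and CHOP branch had 7 genes, all measured, with a median difference of 0.14, 5 positive and 2 negative. ATF4, the factor made when translation slows, had log2 signals of 11.86, 12.09 and 12.02 on CT16 arrays and 11.87, 11.81 and 11.89 on control arrays. The difference was 0.14 ± 0.20 (SE, limma adjusted p = 0.962) with overlapping groups. A dimmer ATF4 probe had 8.08, 7.89 and 8.33 on CT16 arrays and 7.82, 7.66 and 7.64 on control arrays, without overlap, and differed by 0.40 ± 0.22 (SE, limma unadjusted p = 0.107).

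ATF3, a stress-induced repressor and a target of ATF4, had the smallest p of the 40 genes. Its log2 signals were 6.23, 6.70 and 6.85 on CT16 arrays and 7.29, 7.12 and 6.91 on control arrays. Every CT16 array lay below every control array, though CT16 replicate 3 and control replicate 3 were only narrowly apart. The difference was -0.52 ± 0.25 (SE, limma unadjusted p = 0.0739, adjusted p = 0.872), with a 95% interval of -1.10 to 0.06. Without CT16 replicate 3 it was -0.64 ± 0.21 (limma adjusted p = 0.299). It was smaller without CT16 replicate 1, at -0.33, and without background correction, at -0.38. A further ATF3 probe was not detected on any array. With arrays weighted by their spread, ATF3 passed the threshold at -0.74 ± 0.14 (limma adjusted p = 0.00808), and no other of the 40 genes did, in a fit in which 12.2% of all genes passed.

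DDIT3, the gene of the pro-apoptotic factor CHOP, had 8.42, 8.55 and 8.37 on CT16 arrays and 8.40, 8.72 and 8.88 on control arrays. The groups overlapped and the difference was -0.22 ± 0.22 (SE, limma adjusted p = 0.959). ASNS, the asparagine synthetase gene that ATF4 induces, had 10.89, 10.91 and 10.86 on CT16 arrays and 10.82, 10.63 and 10.66 on control arrays. The CT16 arrays were the higher ones and differed by little among themselves. The difference was 0.18 ± 0.19 (SE, limma adjusted p = 0.959), and 0.29 on a second probe whose groups overlapped. TRIB3, a pseudokinase that dampens ATF4, CHAC1, a glutathione-degrading enzyme, and PPP1R15A (GADD34), which restores translation, differed by 0.20, 0.32 and 0.02, with overlapping arrays. CHAC1 was near the detection limit, detected on 3 CT16 arrays and 2 control arrays.

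The ATF4 element TGATGNAA, a short motif that 4.46% of all genes hold in their windows, was found on either strand in 4 of the 40 listed genes with a window (10.0%), HERPUD1, ATF3, ASNS and CHAC1. The sites of ATF3 and ASNS are given because these are the genes of the branch whose arrays did not overlap.
ATF3, chr1:212565211-212565228, plus strand: caggaTGATGgAAggctg
ASNS, chr7:97872464-97872481, minus strand: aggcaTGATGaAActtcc
Both stand before the start and carry the same fixed letters, in capitals. Their differences were -0.52 ± 0.25 and 0.18 ± 0.19 (SE), and that of CHAC1, the other measured carrier, was 0.32 ± 0.28. None passed the adjusted threshold, and nothing is read from their signs.

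**Figure D3:**
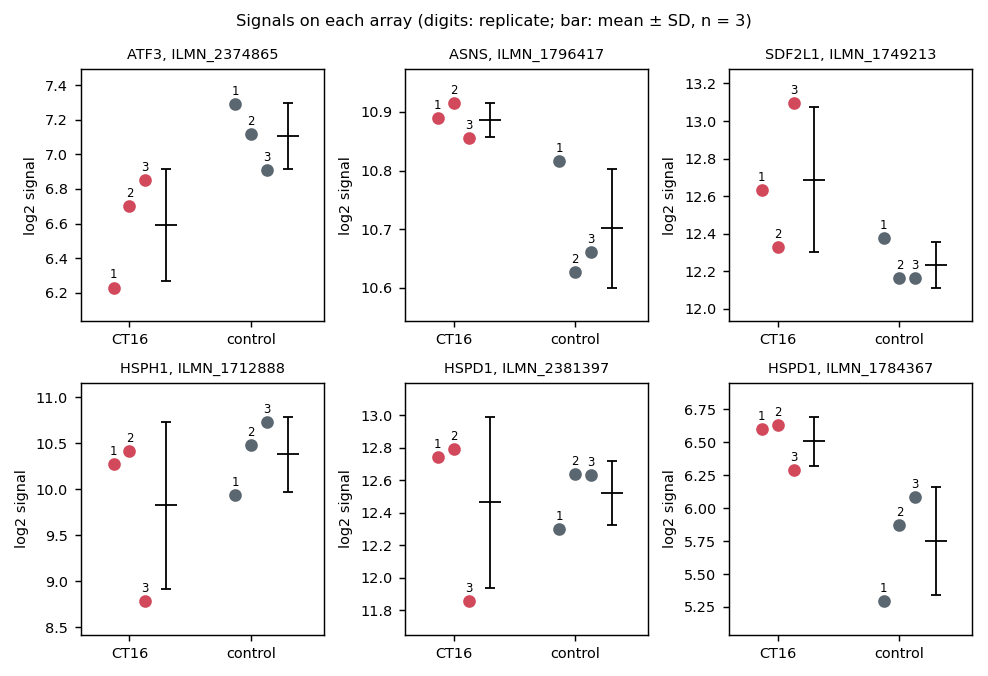
Log2 signal (vertical axis) of single probes of ATF3, ASNS, SDF2L1, HSPH1 and HSPD1 on each array, CT16 (red, left) and control (grey, right); digits give the replicate, and bars the mean ± SD (n = 3). CT16 replicate 3 is the point that lies apart for SDF2L1, HSPH1 and the brightest HSPD1 probe, while ATF3, ASNS and the dim HSPD1 probe show groups that do not overlap.

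How these genes varied from array to array was set against their difference between groups. The median SD within a group was 0.40 on CT16 arrays and 0.22 on control arrays for the 40 genes, and 0.48 and 0.23 for all genes. CT16 replicate 3 gave the highest value of the 6 arrays for 9 of the 40 genes (22.5%, against 40.3% of all genes) and the lowest for 19 (47.5%, against 39.1%). Control replicate 1 gave the highest for 10 (25%, against 14.1% of all genes) and the lowest for 0 (against 7.57%). The numbers of detected probes were also the lowest on these 2 arrays, and their part in these values was not tested.

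Set against the mean of the other CT16 arrays, CT16 replicate 3 was lower by 0.5 or more for 15 of the 40 genes (37.5%, against 34.4% of all genes) and higher by 0.5 or more for 9 (22.5%, against 36.3%). The lowest were SEL1L at -1.81, HSP90AA1 at -1.68, DNAJB9 at -1.65, EIF2AK3 at -1.60 and HSPH1 at -1.57. The highest were HSF1 at 1.16, TRIB3 at 1.11 and HSPB8 at 1.10. By role, this array was lower for all 3 mitochondrial chaperones, all 3 measured sensor-group genes and both degradation genes. It was also lower for 7 of 11 chaperones of the endoplasmic reticulum, beside 5340 of all 11264 genes. It was higher for 8 of 14 cytosolic genes and 5 of 7 ATF4 and CHOP genes, beside 5924 of all 11264.

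As deviations from the mean of the own group, the values of CT16 replicate 3 and control replicate 1 went together across the 40 genes, with a Pearson r of 0.856, and those of CT16 replicate 3 and control replicate 2 went apart, with r = -0.804. Across all genes these were 0.798 and -0.689. Genes are not independent replicates and deviations within a group sum to 0, so these values describe the arrays. The medians per array show the same: relative to the control mean, the chaperones of the endoplasmic reticulum had medians of 0.18, 0.27 and -0.55 on CT16 replicates 1 to 3, and of -0.06, 0.04 and 0.01 on control replicates 1 to 3. The mitochondrial genes had 0.08, 0.26 and -0.67 on the CT16 arrays and -0.22, 0.12 and 0.11 on the control arrays. The cytosolic genes had -0.11, -0.13 and 0.06 on the CT16 arrays and 0.17, -0.04 and -0.03 on the control arrays.

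**Figure D4:**
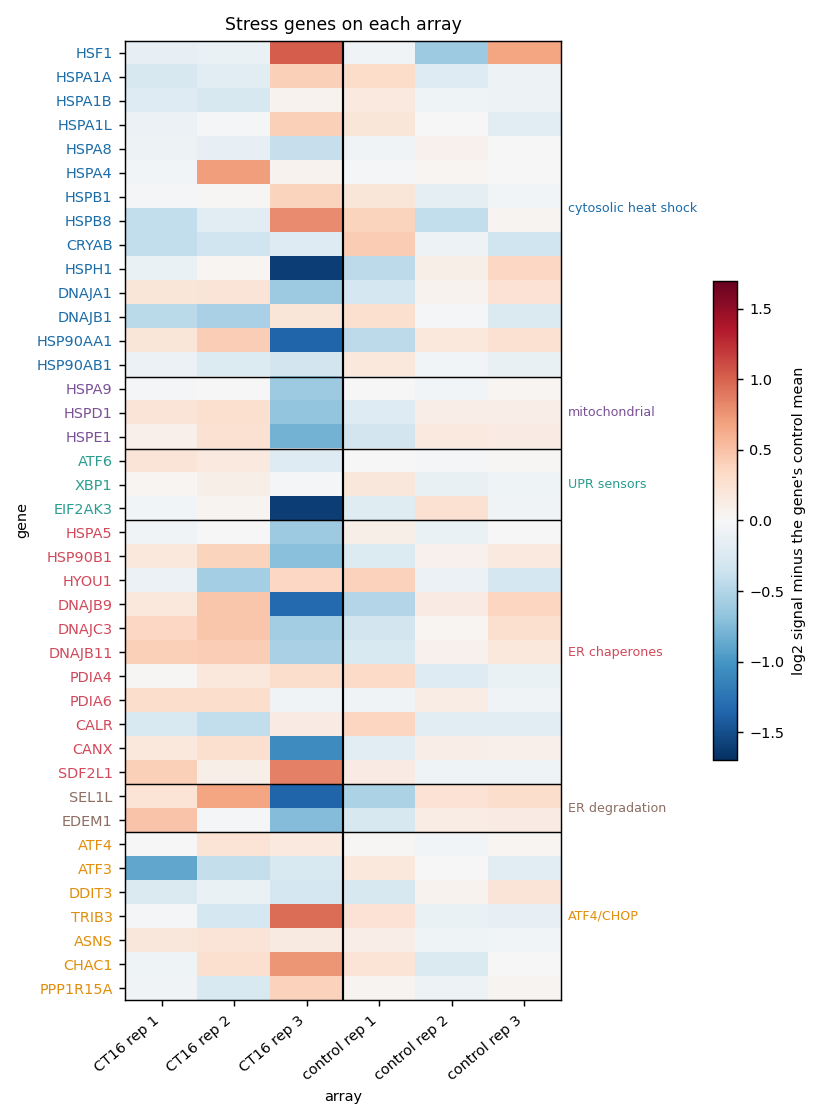
Log2 signal minus the gene's mean over the control arrays (color scale) for the 40 stress genes (vertical axis, by role) on the 3 CT16 arrays (left) and the 3 control arrays (right). The strongest colors are in the column of CT16 replicate 3, dark blue for HSPH1, HSP90AA1, EIF2AK3, DNAJB9 and SEL1L and red for HSF1, HSPB8 and TRIB3.

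**Figure D5:**
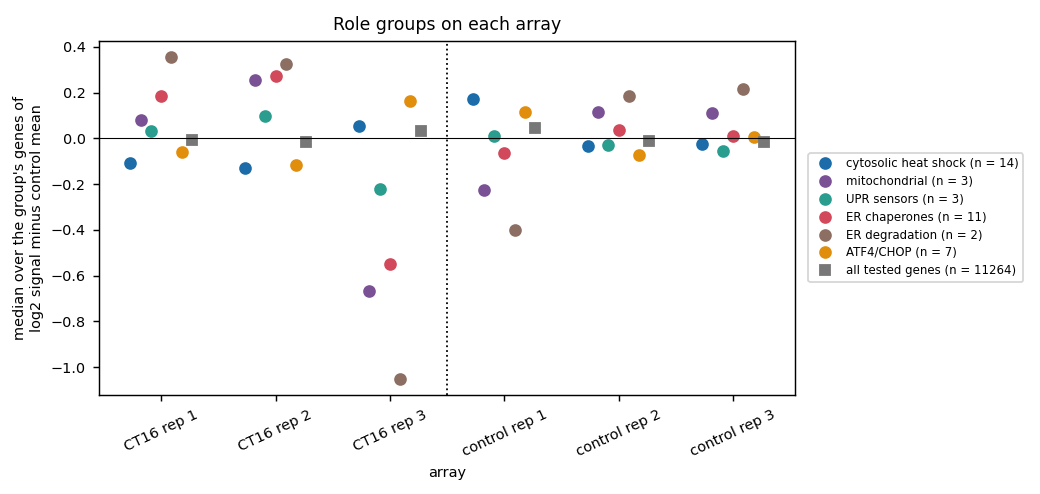
Median over the genes of each role group (colored points) and over all 11264 genes (grey squares) of the log2 signal minus the gene's control mean (vertical axis), on each array (horizontal axis; CT16 left, control right). Degradation, mitochondrial and endoplasmic reticulum genes stand at -1.05, -0.67 and -0.55 on CT16 replicate 3 and above 0 on the other CT16 arrays, while all genes stay within 0.05 of 0.

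Without CT16 replicate 3, the 40 genes were split 20 to 20 and had a median difference of 0.03. Of all genes 51.5% were negative in this fit, with a median of -0.01. The chaperones of the endoplasmic reticulum then had 8 of 11 positive differences and a median of 0.25, the mitochondrial genes a median of 0.17 and the degradation genes 0.34, whereas the cytosolic genes had 11 of 14 negative and a median of -0.12, and the ATF4 and CHOP branch a median of -0.16. Medians of 4 role groups, those of the mitochondrial, endoplasmic reticulum, degradation and ATF4 and CHOP genes, thus changed sign with 1 array. In this fit 2 of the 40 genes had an unadjusted p under 0.05 (5.0%, beside 12.2% of all genes), ATF3 and DNAJB1, the second at -0.51 ± 0.20 (SE, limma unadjusted p = 0.0350, adjusted p = 0.377). The groups did not overlap for 14 of the 40 (35.0%, beside 34.6% of all genes), 1 differed by 1.5-fold or more (2.5%, beside 8.09%), and 0 passed the adjusted threshold, beside 1.29% of all genes.

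Other genes of the same pathways were taken from lists of 120 genes, of which 105 were measured. None passed the adjusted threshold, 2 were higher and 2 lower at an unadjusted p under 0.05 (3.81%, beside 6.41% of all genes), and their median difference was 0.08. The 22 measured of 33 other cytosolic chaperones and co-chaperones had 16 positive and 6 negative differences with a median of 0.13, and the 8 subunits of the TRiC chaperonin, which folds actin and tubulin, 4 and 4 with a median of -0.03. The 7 other mitochondrial chaperones and proteases had a median of 0.08, the 36 measured of 38 other endoplasmic reticulum genes 0.10, and the 32 measured of 34 other ATF4 targets and translation control genes -0.04.

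The smallest p of these lists belonged to STC2, a secreted glycoprotein that PERK and ATF4 induce. It had log2 signals of 5.05, 5.35 and 4.59 on CT16 arrays, of which 1 was detected, and 6.35, 6.45 and 6.47 on control arrays, all detected. The groups did not overlap, with a difference of -1.43 ± 0.25 (SE, limma unadjusted p = 0.000592, adjusted p = 0.121). The CT16 values lay near or below the lowest value of any detected probe, 5.07 to 5.39 on CT16 arrays, so the size of this difference is not well measured. The control arrays of STC2 alone were enough to meet the detection filter. This favors a difference in this direction, and nothing is read from the p of STC2. HSPB7, a small heat shock protein of muscle, was not detected on any CT16 array, with 4.85, 4.83 and 4.79, and had 6.24, 5.69 and 5.79 on control arrays, all detected, a bound of at least 1.65-fold lower in CT16 cells (limma adjusted p = 0.201). HSPB7 passed the detection filter through its control arrays alone, which favors a difference in this direction, and nothing is read from its p. PSPH, the last enzyme of serine synthesis and an ATF4 target, had 10.02, 10.00 and 10.01 on CT16 arrays and 9.51, 9.49 and 9.40 on control arrays. Its CT16 values were the higher ones and nearly equal, with a difference of 0.54 ± 0.19 (SE, limma unadjusted p = 0.0239, adjusted p = 0.628). PSPH is on the same list of ATF4 targets as STC2, and these genes are not compared because of the limit given for STC2. The other genes with the smallest p of their list had adjusted p-values of 0.809 or higher: HSPA2, a testis HSP70, at 0.53, and the endoplasmic reticulum genes TXNDC5, a disulfide isomerase, at -0.58, and WFS1, a membrane protein of calcium balance, at 0.64, the TRiC subunits TCP1 at 0.43 and CCT5 at -0.35, and the mitochondrial chaperone TRAP1 at 0.34 and protease HTRA2 at 0.23.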

How the data were processed

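WM-266-4 cells stably carrying pEXPR-IBA103 with CT16 cDNA (3 samples) or the vector alone (3 samples) were measured on 1-colour Illumina Human-6 arrays. Groups and replicate numbers follow the sample titles. The authors deposited probe intensities, neither normalized nor background-subtracted, and a detection p-value per probe, computed with a program that no source names. A further table deposited by the authors, of quantile normalized intensities, served only as an alternative. Of those, 99.9976% lay within 1% of quantile normalized values computed here, so their scale is linear and uncentred.

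Log2 values were computed with limma 3.58.1 (R 4.3.3): normexp background correction (nec, offset 16, negative controls inferred from detection p-values), then quantile normalization. Of 48803 probes, 18156 with a detection p under 0.01 on at least 3 of 6 arrays were fitted with lmFit and eBayes (two-sided, 1 term), with Benjamini-Hochberg adjustment over these probes and a threshold of 0.05. A gene is given by its tested probe of highest mean signal. Where a group had no array with the probe detected, its fold is a bound: its arrays were set to their own signal or the least signal of any detected probe, whichever was higher, and averaged. Symbols came from the platform annotation (27578 probes with 1 symbol, 13 with several, 21212 unlisted). Promoter windows came from RefSeq (GRCh38.p14). The code was tested on simulated data. The number of arrays limits the precision.

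The 43 genes, their role groups and the pathway lists were chosen with earlier results of these data known. Given with the value on every array are the genes past the adjusted or an unadjusted threshold of 0.05, the largest difference of each role group, genes with a second probe of opposite sign beyond 0.3, and the sensors and transcription factors; genes outside the list are named by the 2 smallest p of their list. Other genes were named with their values known. The 16 alternatives covered background correction, normalization, filters, the replicate block, priors, weights, probe averaging and each array left out. The rank product test of the study was not repeated.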

Additional observations from a re-analysis of the deposited data

How the results depend on the processing

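The count of 0 stress genes past the threshold held under 15 of the 16 alternatives, the exception being array weights, which gave 1 (ATF3 at -0.74, limma adjusted p = 0.00808). At an unadjusted p under 0.05 the count was 0 in the reported fit, 1 with median scaling, cyclic loess or no detection filter (2.5%, 2.5% and 2.44%, beside 6.92%, 6.77% and 7.77% of all genes), 2 without CT16 replicate 3 (5.0%, beside 12.2%) and 6 with array weights (15.0%, beside 27.3%, 3 higher and 3 lower). The number of all genes past the threshold was 27, 4 with detection on all 6 arrays, 3 with the replicate block and 1377 with array weights, and 3 to 145 with 1 array left out, the highest without CT16 replicate 3. The array weights gave CT16 replicate 3 a weight of 0.0704 and were computed gene by gene because the likelihood estimate stopped before it converged. The median difference of the 40 genes was -0.06, 0.0547 with array weights, and -0.13 to 0.03 with 1 array left out. The median of the ATF4 and CHOP branch, 0.14, was -0.16 to 0.18 with 1 array left out, the lowest without CT16 replicate 3. The cause of these shifts was not tested. The differences of HSF1, HSPD1, ATF6, XBP1 and SEL1L changed sign under 2 or 3 alternatives each. Those of HSPH1, HSPA9, EIF2AK3, SDF2L1, ATF4, ATF3 and DDIT3 kept theirs under every alternative that could be fitted, but not their size. Without CT16 replicate 3, HSPH1, HSPA9 and EIF2AK3 were at -0.04, -0.02 and -0.002. Over the alternatives SDF2L1 ranged from 0.25 to 0.63, ATF4 from 0.08 to 0.27, ATF3 from -0.74 to -0.33 and DDIT3 from -0.35 to -0.11. Correlations of deviations between same-numbered arrays were -0.615, 0.611 and -0.584. Deviations of 3 arrays sum to 0 within each group, so these values cannot show whether the replicate numbers pair the arrays. Under the replicate block 0 stress genes passed. With 3 arrays a group, differences under 1.5-fold could not be told from 0 for most of these genes. HSF1 and CHAC1 lay near the detection limit, and EIF2AK3 was not detected on CT16 replicate 3.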
